A study of Mustela putorius furo with 9 samples.

Results

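The comparison described here sets 3 RNA sequencing libraries titled Ep2 against 3 titled Ep1, that is 6 of the 9 libraries of the study. Both groups are cultures of NBL-7, named in the labels as ferret lung epithelial cells and grown in DMEM with fetal bovine serum. The Ep1 libraries carry the label untreated, and the Ep2 libraries carry the label of particulate matter at 250 µg/mL. The third group, titled PBS1 and labelled 500 µg/mL, was not compared here but entered the fit, where it added to the estimate of the spread between libraries. Its title reads like a vehicle control (PBS, phosphate buffered saline) and its label like the highest dose; the labels do not settle which is right, and so leave a doubt over how the groups were named. All genes of at least 1 FPKM (fragments scaled to gene length and library size) in at least 3 of the 9 libraries were taken, which left 11840 of 28494 listed genes. The labels give neither the exposure time nor the kind of particulate matter. The name NBL-7 is also used for a mink lung line, and the species was not tested.

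Airborne particulate matter is a mixture of soot, metals, salts and organic compounds. Cells of the airway lining that take it up are known to respond through several routes, among them oxidative stress responses driven by NRF2, inflammatory signalling through NF-kB, changes of lysosomes and autophagy, arrest or damage of the cell cycle, and altered lipid synthesis. Such responses include changes of transcription, but steps at the level of proteins are not seen in RNA. Ribosomal proteins, respiratory chain subunits and proteasome subunits are made in fixed proportion, and their messages are abundant and usually stable.

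The steps of the deposited FPKM give 12469849 to 13533480 fragments a library, so that 1 fragment on a gene of 1000 bases equalled 0.0739 to 0.0802 FPKM. Differences are given on the log2(FPKM + 1) scale, as Ep2 minus Ep1, with the standard error (SE) and the Benjamini-Hochberg adjusted p of limma over all tested genes; a gene is called at an adjusted p under 0.05. Whether the 3 libraries of a group stem from separate cultures is not labelled, and the p-values cover only how these libraries vary, a spread that may be technical. In such bulk RNA, fewer cells with a transcript and less transcript per cell cannot be told apart. Of the epithelial markers, KRT8 and KRT19 measured 131 to 219 FPKM over the 6 libraries, whereas EPCAM was listed at 0 in all of them and CDH1, KRT18 and CLDN7 reached at most 0.135 FPKM. NKX2-1, a transcription factor of lung epithelium, was present at 8.05 to 15.5 FPKM and FOXA1, another such factor, at 2.65 to 3.38 FPKM, but the surfactant genes SFTPB and SFTPC and the alveolar water channel AQP5 were listed at 0. The summed level of 7 fibroblast markers was 2.51 to 3.67 FPKM, with DCN and LUM at 0, that of 6 leukocyte markers 1.46 to 2.77 FPKM, and that of 4 muscle markers 1.02 to 2.15 FPKM, with MYOD1 at 0. Only 2 of the fibroblast, 1 of the leukocyte and 1 of the muscle markers passed the filter and were tested, and none of them was called. The muscle marker ACTA2 differed by -0.37 (limma adjusted p = 0.0888) and was called lower without Ep2_1. Of 5 endothelial markers only TEK was present, at 12 to 15.9 FPKM, with PECAM1, VWF, CDH5 and KDR at no more than 0.0415 FPKM.

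Of the 11840 genes, 3240 were called (27.4%), 1586 higher in Ep2 (13.4%) and 1654 lower (14%). Folds, here and below, are ratios of FPKM + 1, which understate ratios of FPKM, most so in low genes. On this scale the sizes were small. The median fold of the called genes was 1.26, 71 were at least 1.5-fold higher and 236 at least 1.5-fold lower. At 2-fold or more there were 5 higher and 32 lower, of which 6 lower ones carry a gene symbol. Calls of that size numbered 37 in all, but 64 and 100 with 0.5 and 0.1 added in place of 1. In 2602 genes every Ep2 library lay above every Ep1 library (22%), and in 2463 genes below (20.8%). The number of calls rested on single libraries, being 1824 without Ep1_1, 1500 without Ep2_2 and 1256 without Ep2_3. Against a difference of 1.2-fold rather than 0, limma's treat test called 11 genes.

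The 3 libraries of each group were not alike. Between Ep1_1 and Ep2_2, 12.1% of the tested genes differed at least 1.5-fold, and between Ep1_1 and Ep2_3 again 12.1%. Between Ep1_3 and Ep2_1, which also belong to different groups, the share was 2.26%, below the 3.1% between Ep1_1 and Ep1_3 of the same group. Among the 3240 called genes, Ep1_1 was the Ep1 library farthest from the Ep2 mean in 2469 (76.2%) and the nearest in 264 (8.15%). Ep2_1 was the Ep2 library nearest to the Ep1 mean in 2248 (69.4%), while Ep2_3 was the farthest in 48% and Ep2_2 in 41.4%. The first principal component, with 57.1% of the variance of the 9 libraries, placed Ep1_1 at -14.75 and Ep1_2 and Ep1_3 at -0.37 and 2.89, and Ep2_1 at 15.3 and its mates at 24.7 and 24.6. The libraries titled PBS lay at -17.8, -19.3 and -15.3, beside Ep1_1. Ep1_1 differed at least 1.5-fold from them in 1.77% to 2.32% of the tested genes, a smaller share than from Ep1_2 (2.4%) or Ep1_3 (3.1%) of its own group. Without Ep1_1 and Ep2_1 together, 2725 genes were called.

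**Figure D1:**
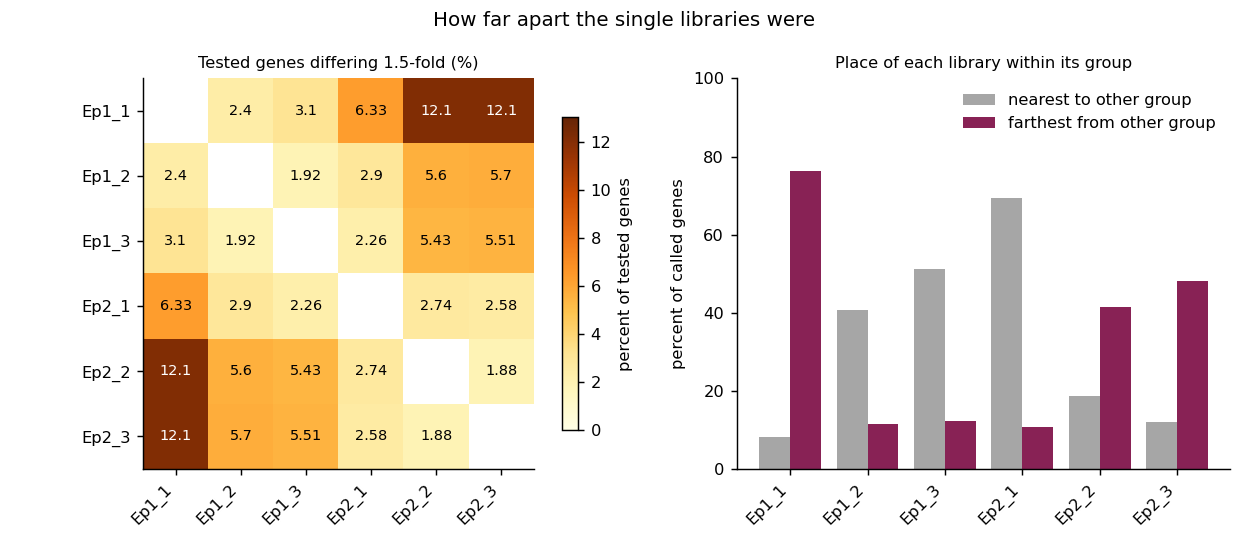
Left, percent of the 11840 tested genes that differed at least 1.5-fold between each pair of the 6 libraries; right, percent of the 3240 called genes in which each library was the one of its group nearest to (grey) or farthest from (purple) the mean of the other group. Ep1_1 stood farthest from Ep2_2 and Ep2_3 (12.1% each), and Ep1_3 and Ep2_1 differed least between the groups (2.26%).

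Values of single libraries are given below in the order 1, 2, 3 within Ep1 and within Ep2. Genes ranked by size or by p were named only if called and without overlap between the groups. Their lack of overlap follows from that choice, and tight groups follow from a ranking by p. Of all 3240 called genes, 3148 had no overlap, so a lack of overlap adds little for the list members below either. Among the genes higher in Ep2 with the smallest p, RPF1, a factor of large ribosomal subunit assembly, measured 53.5, 52.6 and 49.0 FPKM in Ep1 and 73.7, 73.8 and 73.1 FPKM in Ep2, a difference of 0.50 (SE 0.05, limma adjusted p = 0.00254). CEP44, a centriole protein, measured 19.7, 20.8 and 20.8 FPKM and then 30.3, 29.1 and 29.6 FPKM (0.52, SE 0.06, adjusted p = 0.00291). In both genes the 3 libraries of a group lay close together, Ep1_1 and Ep2_1 included, and the groups stood clear of each other. NMD3, which carries the large ribosomal subunit out of the nucleus, measured 71.2, 79.6 and 75.7 FPKM and then 96.7, 103 and 101 FPKM. FARSB, a subunit of the phenylalanyl-tRNA synthetase, rose by 0.59 (SE 0.08), from 40.5, 45.5 and 41.2 FPKM to 57.9, 69.7 and 65.1 FPKM. GPX8, a peroxidase of the endoplasmic reticulum (ER), differed by 0.57, the SUMO protease SENP6 by 0.51, DPY30, a shared subunit of the complexes that methylate lysine 4 of histone H3, by 0.38, and the ER calcium binder RCN2 by 0.38 (limma adjusted p = 0.00425 for each). None of these calls was lost when any 1 library was left out.

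The next genes were ranked by the size of their difference, SET also by its p, so their spread cannot be set against that of the genes above. SET, a histone chaperone and inhibitor of the phosphatase PP2A, measured 151, 176 and 172 FPKM in Ep1 and 227, 257 and 281 FPKM in Ep2 (0.61, SE 0.08, limma adjusted p = 0.00425). The membrane protein gene SMIM19 measured 2.64, 5.09 and 5.0 FPKM and then 8.76, 7.75 and 9.65 FPKM (0.92, SE 0.21, adjusted p = 0.0112), with Ep1_1 low within its group. The groups did not overlap in either gene, as the choice of genes required. HMGB3, a chromatin protein, measured 3.28, 3.76 and 3.18 FPKM in Ep1 and 13.5, 5.27 and 5.01 FPKM in Ep2, so that its fold rested on Ep2_1; the call was lost without Ep1_1, Ep1_2, Ep1_3 or column PBS2 (adjusted p = 0.0504 to 0.0988). The reverse held for CDCA7, a partner of chromatin remodelling, and RGS2, which damps G protein signalling. CDCA7 measured 11.2, 14.5 and 12.1 FPKM in Ep1 and 16.2, 23.8 and 23.9 FPKM in Ep2, and RGS2 17.5, 19.7 and 17.3 FPKM and then 20.6, 35.1 and 31.7 FPKM. In both, Ep2_1 lay only just above Ep1. Their calls were lost without Ep1_1, Ep2_2 or Ep2_3, for RGS2 also without Ep1_3 (adjusted p = 0.0556 to 0.0637 for CDCA7 and 0.0657 to 0.115 for RGS2).

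Among the genes lower in Ep2 with the smallest p, LRRC61, a leucine-rich repeat protein, measured 5.39, 5.0 and 4.64 FPKM in Ep1 and 2.31, 2.07 and 2.04 FPKM in Ep2 (-0.93, SE 0.10, limma adjusted p = 0.00254). IRAK1, a kinase of Toll-like and interleukin-1 receptor signalling, measured 25.1, 28.7 and 27.4 FPKM and then 17.9, 18.9 and 18.8 FPKM (-0.52, SE 0.06, adjusted p = 0.00362). Within each group the libraries of both genes differed far less than the groups did. IGF2, an insulin-like growth factor, fell by 0.62, the transcriptional repressor CIC by 0.58, the receptor phosphatase PTPRS by 0.51, the Wnt signal transducer DVL3 by 0.47 and BCL9L, a coactivator of beta-catenin, by 0.45. Each of these calls held with any 1 library left out.

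Of the 32 genes that fell at least 2-fold, 14 were of up to 500 bases and 11 of over 500 and up to 1000 bases, and among the short named genes Ep1_1 often stood out. PFDN6, a subunit of the chaperone prefoldin, measured 42.7, 19.6 and 18.8 FPKM in Ep1 and 12.6, 11.8 and 10.7 FPKM in Ep2 (-1.04, SE 0.24, limma adjusted p = 0.0123, and 0.0502 without Ep2_3). BBC3, which encodes the proapoptotic protein PUMA, measured 26.6, 16.6 and 23.4 FPKM and then 15.2, 7.93 and 10.0 FPKM (-0.96, SE 0.20, adjusted p = 0.009). CHCHD2, a mitochondrial intermembrane protein, measured 468, 353 and 304 FPKM and then 260.4, 171 and 164 FPKM (-0.92, SE 0.18, adjusted p = 0.00685). As the choice of genes required, the groups did not overlap in any of the 3. The distance from the lowest Ep1 to the highest Ep2 library was small for BBC3 and CHCHD2. INPP5J, an inositol phosphatase, measured 15.5, 10.3 and 12 FPKM and then 8.10, 3.51 and 4.05 FPKM (-1.18, SE 0.23, adjusted p = 0.00715), with Ep2_1 at about the midpoint between its mates and Ep1. HYPK, a partner of the N-terminal acetyltransferase, differed by -0.73, and SNRNP70, a protein of the U1 splicing particle, by -0.67.

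**Figure D2:**
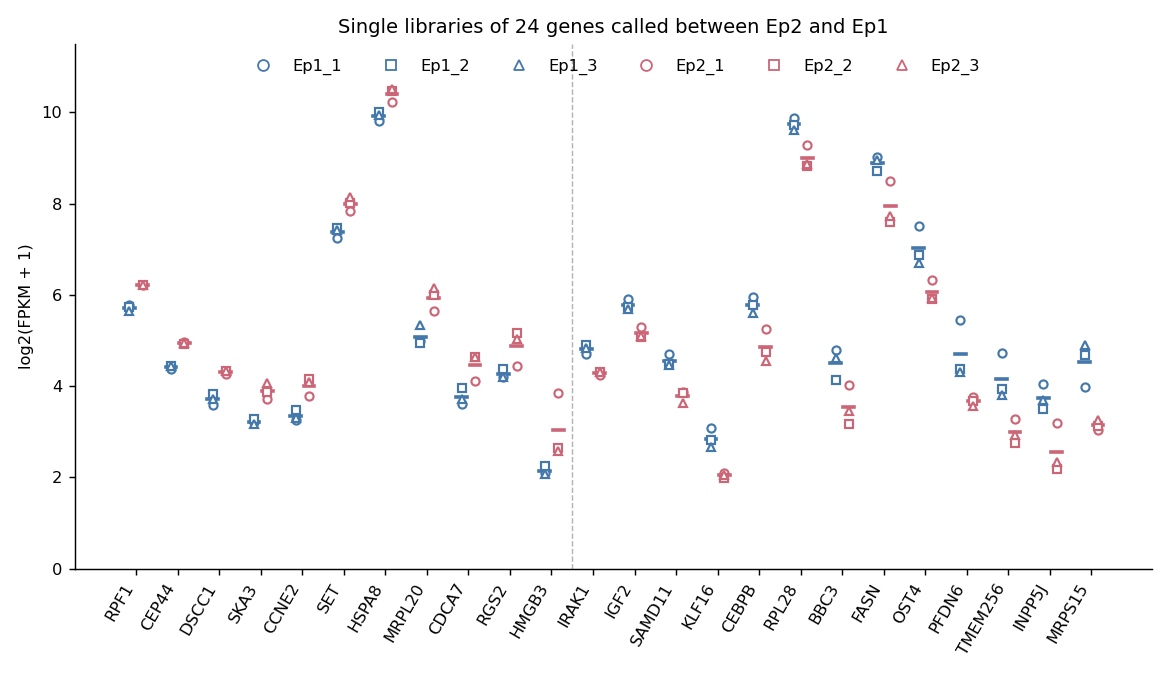
Values of 24 called genes in each of the 6 libraries, on the log2(FPKM + 1) scale; circles, squares and triangles are libraries 1, 2 and 3 of Ep1 (blue) and Ep2 (red), bars are group means, and the dashed line parts genes higher in Ep2 (left) from genes lower in Ep2 (right). RPF1 and CEP44 show tight groups, PFDN6 a single high Ep1_1 (42.7 FPKM) and HMGB3 a single high Ep2_1 (13.5 FPKM).

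Genes were then read by 48 lists of pathways and complexes, each set beside the 13.4% and 14% of all tested genes that were called higher and lower and their median difference of 0.00. In 38 lists members were called in both directions, in 5 only higher and in 5 only lower. Among lists of at least 15 tested members, the highest shares of higher calls were those of mitosis (45.2%) and DNA replication (44.1%), and the highest share of lower calls that of the immediate early genes (47.1%). Members and lists were chosen with earlier results of these data known, so these shares are not independent of the data. No list was tested as a set, and a share above the background is a description of these libraries.

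**Figure D3:**
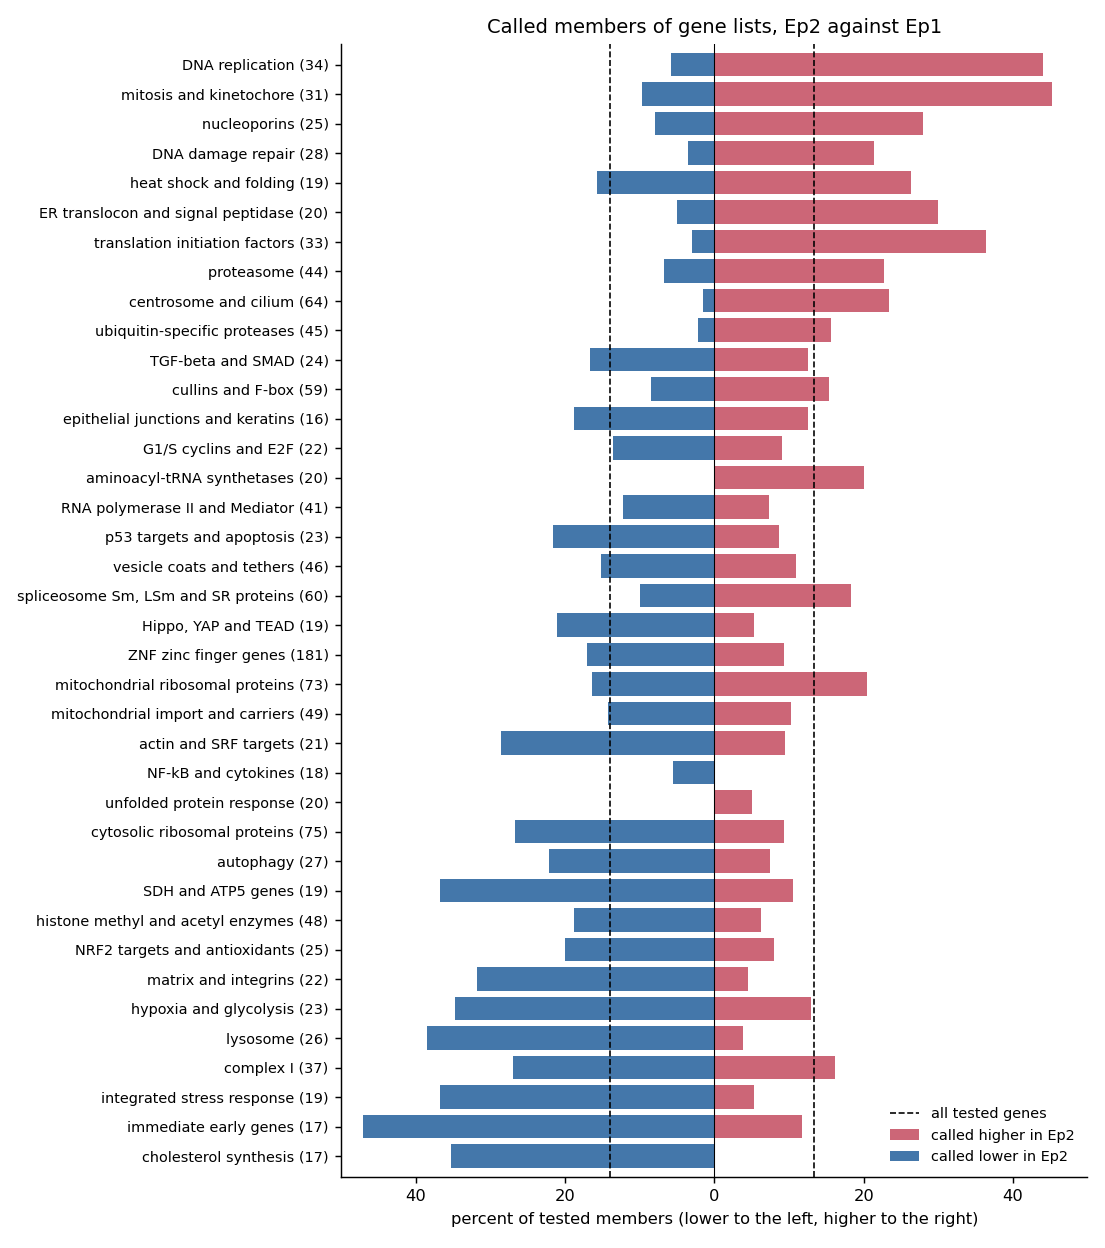
Percent of the tested members of each list with at least 15 tested members (number in brackets) that were called lower (blue, left) or higher (red, right) in Ep2, ordered by the list's median difference; dashed lines mark the 14% and 13.4% of all tested genes. DNA replication and mitosis lie at the top with 15 of 34 and 14 of 31 members higher, and cholesterol synthesis at the bottom with 6 of 17 lower.

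Of 34 tested genes of DNA replication, 15 rose in Ep2, 2 fell and 17 were not called, with a median difference of 0.19. CDC6, which loads the replicative helicase, measured 7.31, 9.15 and 8.46 FPKM in Ep1 and 10.9, 11.8 and 14.1 FPKM in Ep2, a rise of 0.51. ORC2 and ORC6, subunits of the complex that marks replication origins, measured 15.5, 16.3 and 17.2 FPKM and 34.1, 39.6 and 36.5 FPKM in Ep1, and 19.4, 22.5 and 22.4 FPKM and 46.4, 45.5 and 48.6 FPKM in Ep2. Both had non-overlapping groups, and their differences were 0.37 and 0.34 (limma adjusted p = 0.0072 and 0.00711). DUT, which keeps uracil out of DNA, ran the other way, with 106, 93.6 and 78.0 FPKM in Ep1 and 68.0, 75.5 and 68.7 FPKM in Ep2 (-0.37, adjusted p = 0.0175, and 0.0662 without Ep2_3). DSCC1, part of the clamp loader of sister chromatid cohesion and not on the list, measured 10.9, 13.3 and 12.1 FPKM and then 18.2, 19.1 and 19.1 FPKM (0.60, SE 0.09, adjusted p = 0.00425). DSCC1 was named through a ranking of these data and adds nothing to the share of the list. The list's median was above 0 in each of the 9 pairs of an Ep2 with an Ep1 library, from 0.02 to 0.23. The number called higher was 9 without Ep1_1, 8 without Ep2_2, 4 without Ep2_3 and 14 without Ep1_1 and Ep2_1 together.

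Of 31 genes of mitosis and the kinetochore, 14 rose and 3 fell, with a median of 0.18. TTK, a kinase of the spindle checkpoint, rose by 0.55 and the kinetochore motor CENPE by 0.45; the latter call was lost without Ep1_1, Ep2_2 or Ep2_3 (limma adjusted p = 0.0511 to 0.0795). Subunits of the NDC80 complex, which holds microtubules at the kinetochore, were called in opposite directions. SPC25 measured 32.5, 32.9 and 35.5 FPKM in Ep1 and 48.2, 43.5 and 44.8 FPKM in Ep2 (0.42, SE 0.07, adjusted p = 0.00543). SPC24, its direct partner, measured 64.6, 43.8 and 41.1 FPKM and then 37.4, 32.8 and 37.3 FPKM (-0.44, SE 0.14, adjusted p = 0.0417), with Ep1_1 high, and its call was lost in 7 of the 9 fits that left out 1 library (adjusted p = 0.0505 to 0.132). The other 2 lower members were INCENP (-0.31) and BIRC5 (-0.25), while CDC20 (-0.19), AURKB (-0.17), PLK1 (-0.13) and BUB1B (-0.02) were not called. Off the list, SKA3, which couples kinetochores to microtubules, measured 8.25, 8.73 and 7.96 FPKM and then 12.1, 13.6 and 15.7 FPKM (0.66, SE 0.10, adjusted p = 0.00442), and SPDL1, the adaptor of dynein at kinetochores, rose by 0.60. SKA3 and SPDL1 were named through rankings of these data and add nothing to the share of the list. The mitosis list had 8 members called higher without Ep1_1, 7 without Ep2_2, 6 without Ep2_3 and 12 without Ep1_1 and Ep2_1, and 1 called lower without Ep1_1, Ep2_2 or Ep2_3.

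Of 22 tested regulators of entry into S phase, 2 rose (9.09%) and 3 fell (13.6%), shares no higher than the 13.4% and 14% of all tested genes. The cyclin gene CCNE2 measured 8.61, 10.1 and 8.79 FPKM in Ep1 and 12.8, 16.8 and 16 FPKM in Ep2 (0.67, SE 0.10, limma adjusted p = 0.00442). CDKN1B, the inhibitor p27 of cyclin-dependent kinases, measured 37.5, 31.2 and 31.9 FPKM and then 26.8, 24.4 and 24.8 FPKM (-0.39, SE 0.07, adjusted p = 0.00699). Groups of both genes did not overlap. CDKN1A, the inhibitor p21, fell by 0.48, a call lost without Ep1_1, Ep1_2, Ep2_2 or Ep2_3 (adjusted p = 0.0517 to 0.0763). Of 28 DNA repair genes, 6 rose and 1 fell, with a median of 0.15; RAD50, part of the sensor of double-strand breaks, rose by 0.34. Without Ep1_1, Ep2_2 or Ep2_3, 2 of the repair genes were called higher and 1 of the S phase regulators lower. S phase regulators called higher numbered 5 without Ep1_3 and 4 without Ep2_1.

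Centrosome and cilium genes included many higher ones, 15 of 64, against 1 lower (median 0.09). IFT46, a subunit of the cargo trains of cilia, measured 5.91, 7.82 and 6.69 FPKM in Ep1 and 9.50, 11.2 and 10.9 FPKM in Ep2 (0.57, SE 0.10, limma adjusted p = 0.0059), and IFT88 of the same complex rose by 0.42. Of 25 nucleoporins, 7 rose and 2 fell (median 0.15). NDC1, which anchors the nuclear pore in the membrane, measured 17.9, 22.2 and 21.1 FPKM and then 27.2, 32.0 and 32.0 FPKM (0.55, SE 0.10, adjusted p = 0.00514). NUP50, a mobile pore protein, ran the other way (-0.32), a call lost without Ep1_1, Ep1_2, Ep2_2 or Ep2_3 (adjusted p = 0.0505 to 0.0688). Without Ep1_1, Ep2_2 or Ep2_3 the higher calls numbered 9, 9 and 8 for the centrosome list and 3, 3 and 2 for the nucleoporins.

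Translation initiation factors had 12 of 33 members higher and 1 lower, with a median of 0.10. EIF5, which triggers GTP hydrolysis at the start codon, measured 66.1, 81.3 and 75.5 FPKM in Ep1 and 87.6, 111 and 113 FPKM in Ep2 (0.47, SE 0.10, limma adjusted p = 0.00948). Of the factor eIF2, which brings the first tRNA, the alpha subunit gene EIF2S1 measured 111, 112 and 113 FPKM and then 127, 147 and 146 FPKM, a difference of 0.32, and EIF2S2, the beta subunit, 247, 277 and 282 FPKM and then 326, 326 and 339 FPKM, a difference of 0.30. No Ep2 library reached down to Ep1 in these 3 genes. EIF3J, a loosely bound subunit of eIF3, rose by 0.40. Between 8 and 13 initiation factors were called higher with any 1 library left out, where the replication list ranged from 4 to 16. Of 20 aminoacyl-tRNA synthetases, 4 rose and 0 fell; apart from FARSB these were RARS (0.34), DARS (0.22) and EPRS (0.17). Synthetases called higher numbered 2 without Ep1_1 or Ep2_2 and 1, FARSB, without Ep2_3 (adjusted p = 0.0523 to 0.149 where RARS, DARS or EPRS lost its call), and 2 were called lower without Ep1_3.

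Ribosomal protein genes moved in both directions. Of 75 cytosolic ones, 20 fell and 7 rose, with a median of -0.07. RPL28 measured 934, 848 and 788 FPKM in Ep1 and 625, 453 and 466 FPKM in Ep2 (-0.75, SE 0.11, limma adjusted p = 0.00425). RPL11, which also binds the p53 regulator MDM2, measured 88.8, 55.2 and 53 FPKM and then 31.2, 30.3 and 37.8 FPKM (-0.93, SE 0.17, adjusted p = 0.00567), and RPL36 measured 1045, 731 and 708 FPKM and then 554, 456 and 467 FPKM (-0.73, SE 0.13). Ep1_1 was the highest Ep1 library in all 3, and groups did not overlap. RPS14 fell by 0.79 and RPL36A by 0.68. Ribosomal protein genes have many near-identical copies, and how shared reads were counted is not given in the sources used here, so these levels are uncertain. The 2 largest differences of the list were not called: RPL39, named after its values were seen, measured 135, 228 and 245 FPKM in Ep1 and 110.4, 27.6 and 295 FPKM in Ep2, and RPL23A, named likewise, 362, 185 and 788 FPKM and then 216, 157 and 193 FPKM. Within the list, the median difference between single libraries ran from -0.24 (Ep2_2 against Ep1_1) to 0.03 (Ep2_1 against Ep1_3). Calls of lower cytosolic ribosomal proteins numbered 12 without Ep2_2 and 24 without Ep2_1, and higher ones 3 without Ep2_3.

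Of 73 mitochondrial ribosomal proteins, 15 rose (20.5%) and 12 fell (16.4%), beside 13.4% and 14% of all tested genes, with a median of -0.03. MRPL20, of the large subunit, measured 30.7, 29.7 and 39.3 FPKM in Ep1 and 49.2, 63.2 and 70.3 FPKM in Ep2 (0.85, SE 0.14, limma adjusted p = 0.00458), the largest rise of a gene with a symbol in this list. MRPS15, of the small subunit, had the largest fall (-1.38, SE 0.21, adjusted p = 0.00441), and here Ep1_1, at 14.7 FPKM, was the library nearest to Ep2, the other two lying at 24.7 and 29.0 FPKM. MRPS18C measured 27.0, 29.4 and 31.4 FPKM and then 39.7, 43.7 and 47.9 FPKM, whereas MRPS12 measured 31.8, 25.5 and 24.9 FPKM and then 17.3, 18.8 and 18.7 FPKM. Of these small subunit genes, MRPS18C was higher in every Ep2 library and MRPS12 lower in every one. Both were named for the size of their difference among the called members, and do not speak for the subunit. Higher calls in the list numbered 8 without Ep2_3, and lower calls 4 without Ep2_2 and 5 without Ep2_3.

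Of 37 subunits of complex I, the entry point of the respiratory chain, 10 fell and 6 rose (median -0.17). Of 19 genes named SDH (complex II) or ATP5 (ATP synthase and related genes), 7 fell and 2 rose (median -0.08), all 9 being ATP5 genes; complexes III and IV were not analysed here. NDUFA6, an accessory subunit of complex I, measured 84.9, 71.0 and 69.8 FPKM in Ep1 and 51.2, 46.8 and 54.3 FPKM in Ep2 (-0.55, SE 0.08, limma adjusted p = 0.00425). NDUFA11 measured 182, 134 and 141 FPKM and then 107, 94.2 and 89.8 FPKM, a difference of -0.64, and ATP5G2, which encodes a c subunit of ATP synthase, 131, 101 and 102 FPKM and then 80.3, 66.2 and 71.0 FPKM, a difference of -0.60. All 3 had clear gaps between the groups and their highest value in Ep1_1. The complex I median was -0.31 between Ep2_2 and Ep1_1 but 0.01 between Ep2_3 and Ep1_3. Lower calls in complex I numbered 4 without Ep2_2 and 5 without Ep2_3, and lower calls among the SDH and ATP5 genes 4 and 3. Higher calls in complex I numbered 2 without Ep2_2 or Ep2_3 and 3 without Ep1_2 or column PBS2.

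Among 49 genes of mitochondrial import and carriers, 7 fell and 5 rose. These shares, 14.3% and 10.2%, are near the 14% and 13.4% of all tested genes. SLC25A1, which exports citrate for lipid synthesis, measured 95.0, 74.0 and 80.9 FPKM in Ep1 and 64.8, 43.1 and 45.5 FPKM in Ep2 (-0.71, SE 0.14, limma adjusted p = 0.007). TIMM9, a chaperone of the intermembrane space, measured 20.4, 22.4 and 25.0 FPKM and then 40.1, 30.8 and 32.4 FPKM (0.58, SE 0.11, adjusted p = 0.00685), with Ep2_1 the highest. Lower calls numbered 13 without Ep1_3, 4 without Ep1_1 or Ep2_2 and 3 without Ep2_3, and higher calls 1 without Ep2_2 and 3 without Ep2_3.

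Chaperone genes were called in both directions. Of 19 heat shock and folding genes, 5 rose (26.3%) and 3 fell (15.8%), beside 13.4% and 14% of all tested genes (list median 0.11). HSPA8, the constitutive HSP70, measured 893, 1032 and 981 FPKM in Ep1 and 1197, 1413 and 1464 FPKM in Ep2, and its nucleotide exchange factor HSPH1 71.8, 78.8 and 83.3 FPKM and then 92.4, 100.2 and 100.3 FPKM; neither had overlapping groups. CDC37, which brings kinases to HSP90, measured 115, 96.8 and 86.9 FPKM and then 72.0, 66.2 and 68.7 FPKM (-0.52, SE 0.09, limma adjusted p = 0.00484). Of the 8 subunits of the CCT chaperonin, which folds actin and tubulin, 3 rose (37.5%) and 0 fell: CCT4 by 0.30, CCT6A by 0.27 and CCT2 by 0.20. The call of CCT2 was lost without Ep2_2 or Ep2_3 (adjusted p = 0.0525 and 0.0662). Prefoldin, which hands substrates to CCT, had 3 of 6 subunits lower (50%) and 1 higher (16.7%). Beside PFDN6, PFDN2 measured 81.6, 50.4 and 48.5 FPKM and then 33.4, 26.3 and 34.9 FPKM (-0.88, SE 0.17, adjusted p = 0.00699). PFDN4 was called higher by 0.23 and PFDN5 lower by 0.30, both with adjusted p near the threshold (0.0438 and 0.0421) and lost in 7 and 8 of the 9 fits without 1 library (adjusted p = 0.0525 to 0.147). Without Ep2_2 or Ep2_3, 2 heat shock genes were called higher, and without Ep2_3, 1 prefoldin gene was called lower. Without Ep1_3, 2 CCT genes were called lower.

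Of 44 proteasome genes, 10 rose and 3 fell (median 0.10). PSMG1, an assembly chaperone of the core particle, measured 159.6, 180.3 and 166 FPKM in Ep1 and 214, 212 and 226 FPKM in Ep2 (0.36, SE 0.06, limma adjusted p = 0.00522). PSMD8, a subunit of the regulatory particle, measured 111, 96.9 and 97.6 FPKM and then 83.1, 77.6 and 82.1 FPKM (-0.32, SE 0.06, adjusted p = 0.00673). Both groups of values were well apart, in opposite directions. Higher calls numbered 4 without Ep2_3, 5 without Ep2_2 and 6 without Ep1_3 or column PBS2, and lower calls 7 without Ep1_3 and 1 without Ep1_1, Ep2_2 or Ep2_3.

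Among ubiquitin-specific proteases 7 of 45 rose and 1 fell. USP16, which removes ubiquitin from histone H2A, measured 45.1, 52.4 and 52.6 FPKM in Ep1 and 62.5, 69.6 and 72.8 FPKM in Ep2 (0.44, SE 0.08, limma adjusted p = 0.00489), and USP1, which acts on PCNA and FANCD2, rose by 0.46. Of 59 cullin and F-box genes, 9 rose and 5 fell. CUL2, the scaffold of the VHL ligase, rose by 0.43, and FBXO5, an inhibitor of the anaphase-promoting complex, measured 9.47, 9.93 and 9.96 FPKM and then 12.9, 12.8 and 14.2 FPKM (0.40, SE 0.07, adjusted p = 0.00514). The shares of higher calls, 15.6% of the proteases and 15.3% of the cullin and F-box genes, are near the background of 13.4%. Among cullins and F-box genes lower calls numbered 0 without Ep2_3, 1 without Ep1_1 or Ep2_2 and 10 without Ep2_1, and higher calls 3 without Ep2_3; 4 of the proteases were called higher without Ep2_2.

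Genes of protein entry into the ER were higher in 6 of 20 cases and lower in 1 (median 0.10). SSR1 and SSR3, subunits of the translocon-associated complex, measured 86.0, 95.9 and 94.3 FPKM and 139, 159 and 153 FPKM in Ep1, and 113, 128 and 127 FPKM and 195, 188 and 202 FPKM in Ep2. Their differences were 0.41 and 0.37 (limma adjusted p = 0.00442 for both), with no overlap. The oligosaccharyltransferase, which attaches sugar chains to entering proteins, had 3 of 11 subunits lower and 2 higher. OST4, its smallest subunit, fell by 0.97, and DDOST measured 71.1, 71.7 and 72.9 FPKM and then 60.6, 59.3 and 55.9 FPKM (-0.29, SE 0.05, adjusted p = 0.00648), whereas the catalytic subunit gene STT3B rose by 0.24, a call lost without Ep2_2 or Ep2_3 (adjusted p = 0.0525 and 0.0523). DAD1 of the same complex, picked after its values were seen, had the largest difference in the table, -2.22, but was not called (adjusted p = 0.0621): it measured 76.9, 46.5 and 19.1 FPKM in Ep1 and 45.4, 3.45 and 2.56 FPKM in Ep2, with overlap. Of 20 genes of the unfolded protein response 1 was called, HSPA5, the main ER chaperone, with 731, 772 and 836 FPKM and then 902, 893 and 982 FPKM (0.25, SE 0.06, adjusted p = 0.0163, and 0.0724 without Ep2_3). This list thus had 5% called higher and 0% lower, below the 13.4% and 14% of all tested genes. Genes of the unfolded protein response called higher numbered 3 without Ep1_3 and 2 without Ep2_1, where 3 were called lower. Oligosaccharyltransferase genes called higher numbered 0 without Ep2_2 or Ep2_3, 1 without Ep1_1 or Ep1_2 and 3 without Ep1_3. Genes of ER entry called higher numbered 2 without Ep2_2 or Ep2_3 and 3 without Ep1_1.

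**Figure D4:**
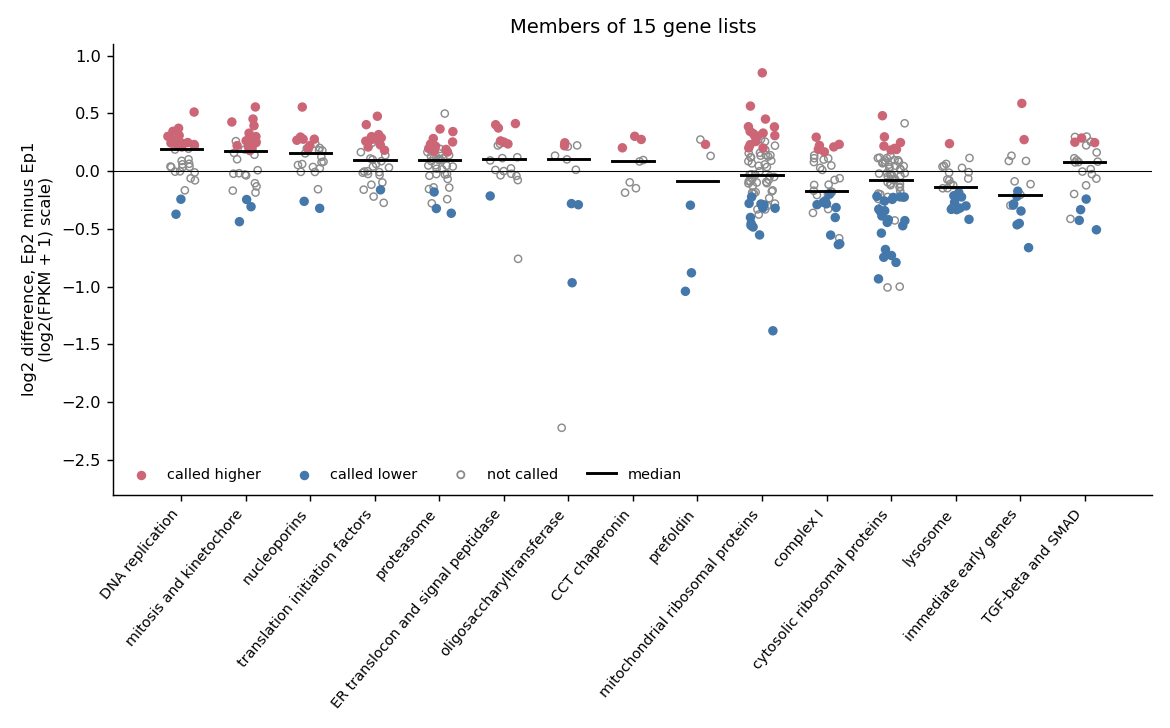
Differences of the single tested members of 15 lists, Ep2 minus Ep1 on the log2(FPKM + 1) scale; filled points were called (red higher, blue lower), open points were not, and black bars are list medians. Members of the mitochondrial ribosome (MRPL20 at 0.85, MRPS15 at -1.38) and of prefoldin lie on both sides of 0, and the lowest point is DAD1 at -2.22.

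The integrated stress response, by which cells slow translation and induce amino acid genes through ATF4, had 7 of 19 genes lower and 1 higher (median -0.18). CEBPB, a transcription factor of this response, measured 61.4, 53.9 and 47.8 FPKM in Ep1 and 37.2, 25.9 and 22.4 FPKM in Ep2. SESN2, a leucine sensor that restrains mTORC1, measured 16.9, 15.6 and 15.2 FPKM and then 12.6, 12.1 and 11.7 FPKM (-0.36, SE 0.07, limma adjusted p = 0.00614). CEBPB differed with Ep2_1 nearest to Ep1, SESN2 with all 3 Ep2 libraries alike. DDIT4, another restraint of mTORC1, was called at -0.45 although its groups overlapped at Ep2_1 (60.2, 51.4 and 52.3 FPKM and then 53.4, 32.0 and 36.2 FPKM), and its call was lost in 8 of the 9 fits without 1 library (adjusted p = 0.0557 to 0.148). Lower calls in the list numbered 4 to 8 over these fits, the fewest without Ep2_2.

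Genes of the p53 response and apoptosis were lower in 5 of 23 cases (21.7%) and higher in 2 (8.7%), with a median of 0.01. The shares of all tested genes were 14% and 13.4%. BAX, which opens the outer mitochondrial membrane, measured 129, 107 and 103 FPKM in Ep1 and 86.8, 75.6 and 70.8 FPKM in Ep2 (-0.54, SE 0.09, limma adjusted p = 0.00543). PHLDA3, a p53 target that restrains AKT, fell by 0.39, a call lost without Ep2_2 or Ep2_3 (adjusted p = 0.0516 and 0.0635). Lower calls numbered 3 without Ep1_1 and 2 without Ep2_2 or Ep2_3.

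Of 25 antioxidant genes and targets of NRF2, 5 fell (20%) and 2 rose (8%), beside 14% and 13.4% of all tested genes (list median -0.09). NFE2L2, which encodes NRF2 itself, measured 59.3, 68.5 and 69.7 FPKM in Ep1 and 79.8, 82.2 and 87.4 FPKM in Ep2 (0.34, SE 0.07, limma adjusted p = 0.00929). NRF2 protein was not measured. Of the other members, GCLC (0.03), GCLM (0.02), TXNRD1 (0.01), GSR (0.02), SRXN1 (-0.11) and HMOX1 (0.29) were not called. The pentose phosphate gene TKT, which NRF2 can induce, was called lower. TKT measured 1676, 1387 and 1428 FPKM and then 1145, 966 and 987 FPKM (-0.53, SE 0.09, adjusted p = 0.00542). FTL, the light chain of the iron store ferritin and the gene of the highest level among those named here, measured 5785, 4968 and 5166 FPKM and then 4589, 3889.8 and 3896 FPKM (-0.36, SE 0.08, adjusted p = 0.00994), with no overlap. Of 12 genes of metal handling 2 fell (16.7%) and 1 rose (8.33%), beside 14% and 13.4% of all tested genes. TFRC, the transferrin receptor, rose by 0.39, a call lost without Ep1_1, Ep2_2 or Ep2_3 (adjusted p = 0.0572 to 0.0692). NRF2 targets called lower numbered 3 without Ep1_1 or Ep2_2.

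Hypoxia and glycolysis genes were lower in 8 of 23 cases and higher in 3 (median -0.13). VEGFA, the vascular growth factor, measured 56.6, 48.2 and 50.3 FPKM in Ep1 and 41.3, 33.6 and 32.6 FPKM in Ep2 (-0.52, SE 0.10, limma adjusted p = 0.0075). TPI1, which interconverts the triose phosphates, measured 295, 240.0 and 228 FPKM and then 192, 169.5 and 186 FPKM, and PFKL, the liver form of phosphofructokinase, 35.8, 30.9 and 33.6 FPKM and then 27.4, 24.3 and 25.8 FPKM. In all 3 genes the highest Ep2 library lay below the lowest Ep1 library. PDK1, which inhibits pyruvate dehydrogenase, rose by 0.37, a call lost without Ep2_3 (adjusted p = 0.0635). Lower calls numbered 3 without Ep2_3 and 4 without Ep2_2, and higher calls 0 without Ep2_3 and 1 without Ep2_2.

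On the lists of inflammatory and interferon genes, which do not hold IRAK1, described above as lower, 3 of the tested members were called. The NF-kB list had 0% called higher and 5.56% lower, and the interferon list 7.69% in each direction. These shares lie below the 13.4% and 14% of all tested genes. Of 18 genes of NF-kB and cytokines 1 was called, NFKBIA, the NF-kB inhibitor, at -0.25 (limma adjusted p = 0.0429, and 0.0619 to 0.138 without Ep1_1, Ep1_2, Ep2_2, Ep2_3 or column PBS2). Of 13 interferon genes, ISG15, a ubiquitin-like antiviral protein, was called lower with overlapping groups, 7.24, 3.60 and 6.93 FPKM in Ep1 and 3.70, 2.64 and 2.84 FPKM in Ep2. The receptor gene IFNAR1 was called higher by 0.31. Neither of these calls held without Ep1_1, Ep2_2 or Ep2_3, nor for ISG15 without Ep1_3 or for IFNAR1 without Ep1_2 (adjusted p = 0.055 to 0.124).

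Immediate early genes, which growth factors and stress induce within minutes, had 8 of 17 members lower and 2 higher (median -0.21). JUND, a member of the AP-1 family, measured 223, 196 and 182 FPKM in Ep1 and 156, 118 and 108 FPKM in Ep2 (-0.66, SE 0.12, limma adjusted p = 0.00611). JUNB of the same family measured 129, 104 and 98.0 FPKM and then 83.1, 79.9 and 76.7 FPKM (-0.45, SE 0.09, adjusted p = 0.007), and the serum response factor SRF 23.4, 21.4 and 20.4 FPKM and then 17.2, 14.9 and 14.4 FPKM (-0.47, SE 0.08, adjusted p = 0.00489). None of the 3 overlapped between groups. FOS (-0.21), EGR1 (-0.09), MYC (0.09) and ATF3 (0.09) were not called. The 2 higher members were KLF2 (0.59) and KLF10 (0.27). The KLF2 call was lost without Ep1_1, Ep2_2 or Ep2_3 (limma adjusted p = 0.0803 to 0.0904). The list median was below 0 in each of the 9 library pairs, from -0.27 to -0.09. Its lower calls numbered 3 without Ep1_1, Ep1_2, Ep2_2 or Ep2_3, 5 without Ep2_1 or column PBS1, 4 without column PBS2 and 4 without Ep1_1 and Ep2_1.

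Of 24 genes of TGF-beta signalling, 4 fell and 3 rose (median 0.08). The shares of 16.7% and 12.5% are near the 14% and 13.4% of all tested genes. The corepressor SKI and the inhibitory factor SMAD6 were lower. SKI measured 10.7, 9.68 and 10.3 FPKM in Ep1 and 6.50, 6.97 and 7.20 FPKM in Ep2 (-0.51, SE 0.07, limma adjusted p = 0.00425), and SMAD6 38.4, 36.8 and 33.3 FPKM and then 28.5, 25.9 and 25.5 FPKM (-0.43, SE 0.07, adjusted p = 0.00447). SMAD7, the other inhibitory factor, fell by 0.33 and the receptor TGFBR1 rose by 0.29, both calls being lost without Ep1_1, Ep2_2 or Ep2_3 and for SMAD7 also without Ep1_2 (adjusted p = 0.0563 to 0.0942). Without Ep1_1, Ep2_2 or Ep2_3 no gene of the list was called higher and 2 were called lower; 2 were also called lower without Ep1_2, and 5 higher without Ep1_3 or Ep2_1. Of 19 Hippo pathway genes, 4 fell and 1 rose: STK3, the kinase MST2 at its head, measured 27.0, 31 and 29.0 FPKM and then 36.7, 35.4 and 37.7 FPKM (0.33, SE 0.07, adjusted p = 0.00869), and the adaptor AMOTL1 fell by 0.34. The shares of the Hippo list were 21.1% lower and 5.26% higher, beside the same 14% and 13.4%. Lower calls of this list numbered 1 without Ep1_1, Ep2_2 or Ep2_3 and 2 without Ep1_2. Among 10 feedback genes of MAP kinase signalling and 7 EGF receptor and ligand genes 1 each was called, SPRED1 (0.31) and EREG (0.40), and neither call held without Ep1_1, Ep2_2 or Ep2_3 (adjusted p = 0.0556 to 0.073). These single calls are 10% and 14.3% of the lists, near the 13.4% of all tested genes called higher, and 0% were called lower.

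Lysosomal genes were lower in 10 of 26 cases and higher in 1 (median -0.14). ATP6V1F, a subunit of the proton pump that acidifies lysosomes, measured 76.6, 70.9 and 71.7 FPKM in Ep1 and 59.6, 58.4 and 56.7 FPKM in Ep2 (-0.32, SE 0.06, limma adjusted p = 0.00555). GAA, which degrades glycogen, measured 43.0, 39.2 and 40.9 FPKM and then 36.4, 30.7 and 30.4 FPKM (-0.33, SE 0.07, adjusted p = 0.0108, and 0.0507 without Ep2_3). The protease CTSD differed by -0.33, a call lost without Ep1_1, Ep2_2 or Ep2_3 (adjusted p = 0.0727 to 0.0883). The list median was below 0 in all 9 library pairs, from -0.23 to -0.05, but its lower calls numbered 3 without Ep1_1, 2 without Ep2_2 and 1 without Ep2_3, against 9 without Ep1_1 and Ep2_1. Of 27 autophagy genes, 6 fell (22.2%) and 2 rose (7.41%), beside 14% and 13.4% of all tested genes. ATG5, needed to lipidate LC3, measured 18.9, 23.5 and 20.4 FPKM and then 26.7, 26.9 and 26.8 FPKM (0.35, SE 0.07, adjusted p = 0.00961). MAP1LC3A, one of the LC3 genes, measured 47.1, 35.5 and 38.8 FPKM and then 35.0, 22.7 and 21.1 FPKM (-0.63, SE 0.16, adjusted p = 0.0175), with Ep2_1 at 35.0 FPKM next to Ep1_2 at 35.5 FPKM, and its call was lost without Ep1_1, Ep2_2 or Ep2_3 (adjusted p = 0.0665 to 0.0715). Lower autophagy calls numbered 0 without Ep2_2 and 1 without Ep2_3, and higher ones 4 without Ep1_3.

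The matrix and integrin list had 7 of 22 genes lower and 1 higher (median -0.12). LAMA5, a laminin chain of basement membranes, measured 90.5, 85.3 and 83.9 FPKM in Ep1 and 67.5, 52.3 and 48.9 FPKM in Ep2 (-0.63, SE 0.10, limma adjusted p = 0.00442). TIMP1, an inhibitor of matrix metalloproteases, measured 104, 90.4 and 102 FPKM and then 74.0, 65.6 and 59.4 FPKM (-0.57, SE 0.08, adjusted p = 0.00425), and the collagen IV chain gene COL4A1 fell by 0.51. In LAMA5 and TIMP1, Ep2_1 was again the Ep2 library nearest to Ep1. Of 21 genes of actin and SRF targets, 6 fell and 2 rose. TMSB10, which binds actin monomers, measured 798, 589 and 519.6 FPKM and then 404, 410.3 and 422 FPKM (-0.60, SE 0.12, adjusted p = 0.00798), a gene whose Ep2 libraries agreed closely while Ep1_1 was high. The lower calls were 4 without Ep1_1 or Ep2_2 and 3 without Ep2_3 for the matrix list, and 3 without Ep2_3 for the actin list.

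Of 16 epithelial junction and keratin genes, 3 fell (18.8%) and 2 rose (12.5%), beside 14% and 13.4% of all tested genes. KRT8, a keratin of simple epithelia, measured 200.02, 188 and 153 FPKM in Ep1 and 141, 142 and 131 FPKM in Ep2 (-0.37, SE 0.09, limma adjusted p = 0.0128, and 0.0573 without Ep2_3). F11R, a tight junction adhesion molecule, measured 29.0, 22.3 and 21.3 FPKM and then 31.6, 33.1 and 29.4 FPKM (0.37, SE 0.10, adjusted p = 0.0238), a call lost without Ep1_2, Ep1_3, Ep2_2 or Ep2_3 (adjusted p = 0.0503 to 0.083). The lung transcription factor NKX2-1 measured 15.5, 12.8 and 14.8 FPKM and then 11.3, 8.72 and 8.05 FPKM. The groups did not overlap, and the call held with any 1 library left out. Of the 5 tested genes of lung epithelial identity 2 fell, the other being the lipid transporter ABCA3 (-0.36), a call lost without Ep1_1, Ep2_2 or Ep2_3 (adjusted p = 0.0776 to 0.0826). TEK, the endothelial marker that was present, was called higher by 0.26, a call lost without Ep1_1, Ep1_3, Ep2_2 or Ep2_3 (adjusted p = 0.0513 to 0.094). Without Ep2_2 or Ep2_3 no junction gene was called higher, and without Ep2_3 none lower; 1 was called higher without Ep1_1 or Ep1_3.

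In several sterol and fatty acid genes Ep2_1 departed from its mates. The fatty acid synthase gene FASN stood at 360.0 FPKM in Ep2_1 but 192 and 212 FPKM in Ep2_2 and Ep2_3, against 517, 419.9 and 497 FPKM in Ep1. FDFT1, which makes squalene, measured 88.6, 47.2 and 55.9 FPKM in Ep2 and 85.6, 80.4 and 98.4 FPKM in Ep1, so that Ep2_1 lay inside the range of Ep1; it was not called (limma adjusted p = 0.0653). MSMO1, a sterol methyl oxidase, measured 160.2, 95.4 and 106 FPKM in Ep2 and 134, 129 and 169 FPKM in Ep1 (adjusted p = 0.252). FDPS, which makes farnesyl diphosphate, was called at -0.69 with 192, 152 and 170.5 FPKM in Ep1 and 146, 79.0 and 101 FPKM in Ep2, a call lost without Ep1_1, Ep2_2 or Ep2_3 (adjusted p = 0.0628 to 0.0723). The median over the 17 cholesterol synthesis genes was -0.78, -0.46 and -0.79 between Ep2_2 and the 3 Ep1 libraries, -0.56, -0.36 and -0.60 between Ep2_3 and them, and -0.05, 0.14 and -0.15 between Ep2_1 and them. Of the 17, 6 were called lower with all libraries, 15 without Ep2_1, 12 without Ep1_1 and Ep2_1, and 3 without Ep1_1, Ep2_2 or Ep2_3. Of the 12 fatty acid synthesis genes 5 fell and 0 rose, and 3 were called lower without Ep1_1, Ep2_2 or Ep2_3.

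Other departures of Ep1_1 and Ep2_1 were looked for in genes with a symbol, a group mean of at least 5 FPKM and the other libraries of the group within 0.25 of each other. Of 7086 such genes for Ep1_1 and 7092 for Ep2_1, 1 each stood above its mates by at least 1 on the log2 scale and 0 below. For Ep1_1 this was PFDN6, followed by TMEM256, TMEM160 (26.0, 13.9 and 16.2 FPKM), PMVK, the phosphomevalonate kinase (19.8, 12.1 and 11 FPKM), and OST4. Those lowest in Ep1_1 against its mates were MRPS15 and EAPP, an E2F-binding protein (8.69, 17.4 and 14.9 FPKM). For Ep2_1 the gene was HMGB3, followed by INPP5J, FASN, FDFT1, MSMO1 and STAT5A, a transcription factor of cytokine signalling (9.45, 5.47 and 5.79 FPKM). Lowest in Ep2_1 were NADK, the kinase that makes NADP (9.46, 17.1 and 15.8 FPKM), RGS2, FTSJ3, a factor of ribosomal RNA processing (8.86, 13.7 and 15.5 FPKM), and CDCA7. The order is by the size of the departure and has no test.

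The differences varied with gene length, though not steadily. Of 422 tested genes of up to 500 bases, 8.77% were called higher and 17.1% lower, with a median of -0.08, and of 1110 genes of over 500 and up to 1000 bases 11.4% and 19.9%, with a median of -0.04. The shares were 14.3% and 15.2% in the 2528 genes of over 1000 and up to 2000 bases. They were 16% and 12.9% in the 3959 genes of over 2000 and up to 4000 bases. In the 3821 genes of over 4000 bases they were 11.2% and 12.2%, with lower calls again the larger share. In the shortest class the median was -0.14, -0.22 and -0.17 for Ep2_1, Ep2_2 and Ep2_3 against Ep1_1, but between -0.11 and 0.02 against Ep1_2 and Ep1_3. Of the lists above, cytosolic ribosomal proteins, complex I and prefoldin have the shortest genes (median 602, 698 and 796 bases, against 2818 bases of all tested genes). With the trend of each library on gene length removed, 18 cytosolic ribosomal protein genes were called lower and 11 higher, 9 complex I genes lower and 7 higher, and 2 prefoldin genes lower and 1 higher. The replication list, with a median length of 2643 bases, had 15 higher and 2 lower in that fit, as without it.

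**Figure D5:**
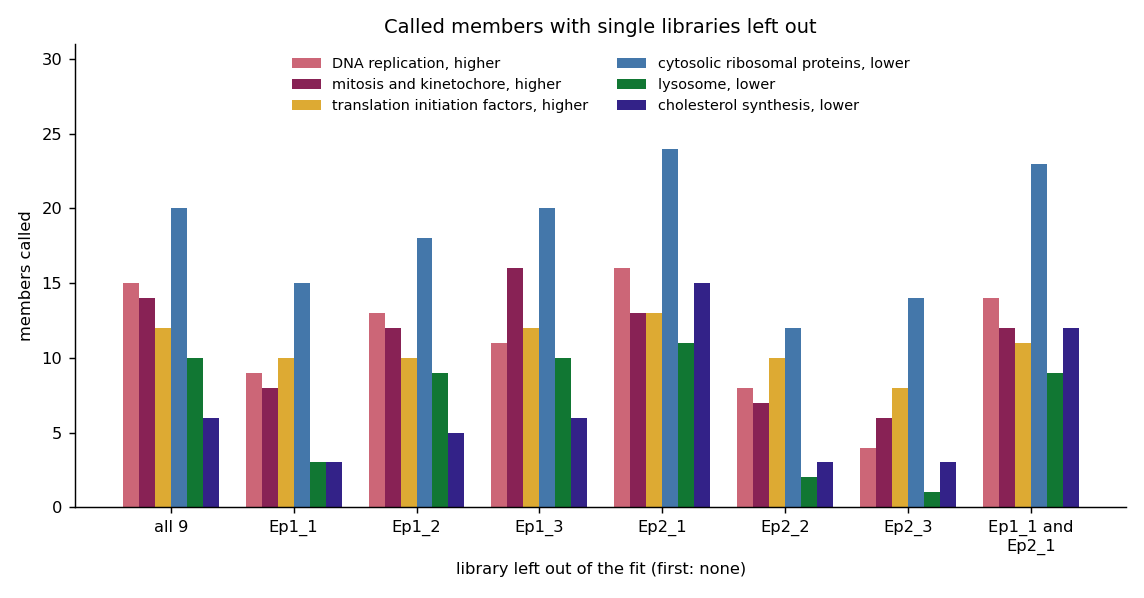
Number of members called in 6 lists, in the direction given in the key, with no library left out (first group of bars), with each Ep1 or Ep2 library left out in turn, and with Ep1_1 and Ep2_1 both left out. Lysosomal lower calls drop from 10 to 1 without Ep2_3, and cholesterol synthesis lower calls rise from 6 to 15 without Ep2_1.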

How the data were processed

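The authors deposited 1 table of FPKM for 28494 genes and 9 libraries, per the file headers; Bowtie 0.12.2 and the genome build mm8 appear in the submitters' notes on processing (per the submitters' processing notes). As mm8 is a mouse build and the table names ferret genes, the build is unsettled and no coordinates are given; how reads were counted, by strand or when shared, is not given in the sources used here, so genes with near-identical copies and overlapping or antisense genes are uncertain. Symbols come from the gene identifiers (22335 of 28494 match a reference gene table of another assembly).

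Groups follow the treatment labels. FPKM times gene length were whole multiples of 1 fragment for 100% of values, within 0.02, which gave the depths; intervals on them would cover counting error only. Genes that reached 1 FPKM in 3 or more libraries were fitted on log2(FPKM + 1), a scale that understates changes of low genes, with limma 3.58.1 in R 4.3.3 (intensity trend, 1 mean per group, all 9 libraries), and p-values were adjusted by Benjamini-Hochberg with a threshold of 0.05. The fit was run on simulated data of equal depth, with the same dispersion in every gene and no departing library. That run checks the code only, as these libraries depart from such a setting.

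Members and gene lists were chosen with earlier results of these data known. Named genes had a symbol, were called, averaged 5 FPKM or more in Ep1 or Ep2 and had groups without overlap: the 12 largest differences and the 12 smallest p in each direction, the 12 largest of at least 100 FPKM, and up to 4 called members per list (overlap allowed, 2 members of the highest level where none was called); departures of Ep1_1 and Ep2_1 were ranked apart, 8 in each direction. Alternatives were other pseudocounts (0.1, 0.5), no filter or 5 FPKM, quantile normalization, equal medians, no trend, sample weights, 6 libraries with and without a replicate block, the length trend removed (loess span 0.4), voom on recovered fragments, treat at 1.2-fold and libraries left out. GC content and sequences were not analysed here.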

Additional observations from a re-analysis of the deposited data

How the results depend on the processing

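Apart from FTL at 0 with quantile normalization, named genes kept their direction in each alternative run. The 3240 calls fell to 11 with treat at 1.2-fold (2 of 1586 higher, 9 of 1654 lower) and ranged from 1256 to 3421 with 1 library left out (582 to 1632 higher, 674 to 1789 lower). Calls with an absolute log2 difference of at least 1, 37 in the reported fit, numbered 100 and 64 with pseudocounts of 0.1 and 0.5, 107 with voom, 8 with treat and 28 to 75 with 1 library left out. The other settings gave 2213 (no filter) to 4485 (sample weights) calls. With the replicate block in the 6 libraries 2917 genes were called, against 2317 in the same libraries without it. Same-numbered libraries correlated in their deviations at 0.152, 0.072 and 0.0647, and the other pairs at -0.127 to 0.0733. These values do not settle whether the numbers mark pairs. The labels state no pairing, and the reported fit uses none. Of 211 named calls, 134 held with each library left out; 72 were lost without Ep2_3, 63 without Ep2_2, 51 without Ep1_1, 41 with no filter, 20 with 6 libraries, 10 without the trend, 4 with quantile normalization (FTL among them, whose top rank gives it the same value in every library) and 210 with treat. Depth limits genes near 1 FPKM.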

Other observations

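Among 181 zinc finger genes named ZNF, 31 fell (17.1%) and 17 rose (9.39%), beside 14% and 13.4% of all tested genes (list median -0.02). ZNF579 measured 13.8, 11.3 and 10.9 FPKM in Ep1 and 7.40, 5.24 and 6.24 FPKM in Ep2 (-0.84, SE 0.11, limma adjusted p = 0.00425), whereas ZNF639 measured 12.9, 14.0 and 13.8 FPKM and then 18.3, 21.5 and 19.9 FPKM (0.51, SE 0.07, adjusted p = 0.00425). Both calls held with any 1 library left out. Enzymes that add or remove histone methyl and acetyl groups were lower in 9 of 48 cases and higher in 3 (median -0.09). KMT2D, a methyltransferase of enhancers, measured 10.1, 10.6 and 10.6 FPKM and then 7.77, 7.60 and 7.02 FPKM (-0.44, SE 0.07, adjusted p = 0.00442), and DOT1L, which methylates lysine 79 of histone H3, fell by 0.43. Both groups of KMT2D were tight, Ep1_1 and Ep2_1 included. Of 41 subunits of RNA polymerase II and Mediator 5 fell (12.2%) and 3 rose (7.32%), shares below those of all tested genes. MED25 measured 15.8, 14.9 and 13.8 FPKM and then 11.7, 10.3 and 10.2 FPKM (-0.43, SE 0.07, adjusted p = 0.00506), and POLR2J fell by 0.46. Of 60 spliceosome genes 11 rose (18.3%) and 6 fell (10%). SRSF10 (0.32) and LSM12 (0.30) were among the higher and SF3B5 (-0.41, adjusted p = 0.0513 without Ep2_3) among the lower. Without Ep1_1, Ep2_2 and Ep2_3 in turn the lower and higher calls numbered 18, 14 and 12 and 8, 7 and 6 for the ZNF genes, 5, 5 and 3 and 0, 0 and 0 for the histone enzymes, and 3, 3 and 3 and 1, 0 and 1 for the polymerase and Mediator subunits. Without Ep2_3 alone the spliceosome genes had 2 lower and 4 higher calls. Without Ep1_2, 10 ZNF genes were called higher and 5 histone enzymes lower, without Ep2_1 5 polymerase and Mediator subunits higher, and without column PBS1 or PBS2 1 histone enzyme higher.

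Of 46 genes of vesicle coats and tethers, 7 fell (15.2%) and 5 rose (10.9%), shares near the 14% and 13.4% of all tested genes. TRAPPC2 and TRAPPC9, subunits of the TRAPP tethering complexes, were called in opposite directions. TRAPPC2 measured 16.9, 16.4 and 17.0 FPKM in Ep1 and 21.8, 23.3 and 22.0 FPKM in Ep2 (0.39, SE 0.06, limma adjusted p = 0.00442), and TRAPPC9 14.2, 12.2 and 12.7 FPKM and then 10.4, 8.20 and 7.88 FPKM (-0.52, SE 0.10, adjusted p = 0.00739). Neither overlapped. Of 14 amino acid transporters 3 fell and 0 rose; SLC6A6, the taurine transporter, measured 23.6, 20.1 and 20.5 FPKM and then 14.8, 15.9 and 14.0 FPKM (-0.49, SE 0.10, adjusted p = 0.00859). Vesicle genes called lower numbered 4 without Ep1_1 or Ep2_1, 2 without Ep2_2 and 1 without Ep2_3, and called higher 2 without Ep1_1 or Ep1_2, 1 without Ep2_2 or Ep2_3 and 3 without Ep2_1 or column PBS1 or PBS2. Without Ep2_2, 1 amino acid transporter was called lower.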
